A study of Mus musculus with 8 samples.

Results

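The complement system was followed through 29 genes, chosen by symbol as a list of complement components, regulators and receptors. All 29 were found among the 52459 genes of the bulk count table and among the 31053 genes of the single-cell matrices. The list holds 7 genes of classical initiation (C1qa, C1qb, C1qc, C1ra, C1s1, C4b and C2), 4 of the lectin pathway (Mbl1, Mbl2, Masp1 and Masp2), 4 around C3 and the alternative pathway (C3, Cfb, Cfd and Cfp), 6 of the terminal pathway (Hc, which encodes C5, and C6, C8a, C8b, C8g and C9), 5 regulators (Cfi, C4bp, Serping1, Cd55 and Cd59a) and 3 receptors of the fragments C3a and C5a (C3ar1, C5ar1 and C5ar2).

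Complement is a cascade of plasma proteins that marks and lyses targets and draws in leukocytes. Antibody-bound C1q, or mannose-binding lectins on sugars, start proteases that cut C4 and C2, the pathways meet at C3, and the later components C5 to C9 build a pore in the membrane. Hepatocytes secrete most of the plasma components, while macrophages are a main source of C1q, and fibroblasts and epithelia can make C3 and the C1 proteases locally.

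The study grew FC1242 tumors at a pair of sites in C57BL/6 mice. FC1242 is a mouse pancreatic cancer line of the KPC type. The liver group comprised metastatic tumors in the liver and the primary group comprised tumors in the pancreas, each from 100000 injected cells and harvested after 3 weeks. Each site gave 3 bulk RNA-seq libraries of whole tumor tissue and 1 single-cell library of sorted CD45+ cells. All animals received the same line and no drug is named, and the labels give neither age nor sex nor the route by which cells reached the liver. They also do not say whether the 3 libraries of a site came from separate mice, so p-values measure the spread between these libraries, which may be technical.

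Bulk libraries held between 28513818 and 36743247 reads at the liver site and between 27481390 and 33156529 at the primary site. A list of 15 hepatocyte genes took 10.8%, 10.6% and 7.03% of the reads in liver tumors, against 0.00992%, 0.0592% and 0.0180% in primary tumors, and none of the 15 was at 0 reads over the primary libraries. All 15 were higher in liver tumors, with a median of 11.41 on the log2 scale and summed levels of 72020 to 135000 CPM (reads scaled to 1 M per library, with TMM factors) in liver tumors and 78.9 to 563 CPM in primary tumors. Their part in the complement levels was not tested, and the levels of complement per albumin read are given with the results. In the single-cell data 7509 cells were called in the liver library and 2249 in the primary library, with medians of 6757 and 12012 UMIs (counted RNA molecules) per cell. Of the barcodes with at least 1500 UMIs, 39.1% in the liver library and 69.5% in the primary library exceeded 10% mitochondrial UMIs and were left out. The libraries had 7 called barcodes in common.

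Complement RNA was far higher in the liver tumors. Of the 29 genes, 25 were called higher in liver tumors and 0 lower by edgeR at an adjusted p of 0.05, and 4 were not called (C1qb, Cfd, C3ar1 and C5ar1). Over all 16487 genes tested, 16.7% were called higher and 6.26% lower. The median log2 change of the 29 genes was 4.16, against -0.07 over all genes tested. At an unadjusted p under 0.05 in edgeR the count of lower genes among the 29 was also 0. DESeq2 and limma-voom also called 0 of the 29 lower, at an adjusted p under 0.05. Every liver library lay above every primary library for 26 genes, and the groups overlapped for 3 (Cfd, C3ar1 and C5ar1). Over all genes tested, 23.8% had every liver library above every primary one and 20.2% had every liver library below. Together the 29 genes took 1.33%, 1.75% and 1.23% of the reads in liver tumors, against 0.120%, 0.111% and 0.127% in primary tumors. The sizes differed by role: the lectin and terminal genes had medians of 12.31 and 12.24, the regulators 2.30, classical initiation 1.77, C3 with the alternative pathway 1.69 and the receptors 0.38. In bulk tissue, fewer cells of a type and less RNA per cell cannot be told apart.

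**Figure D1:**
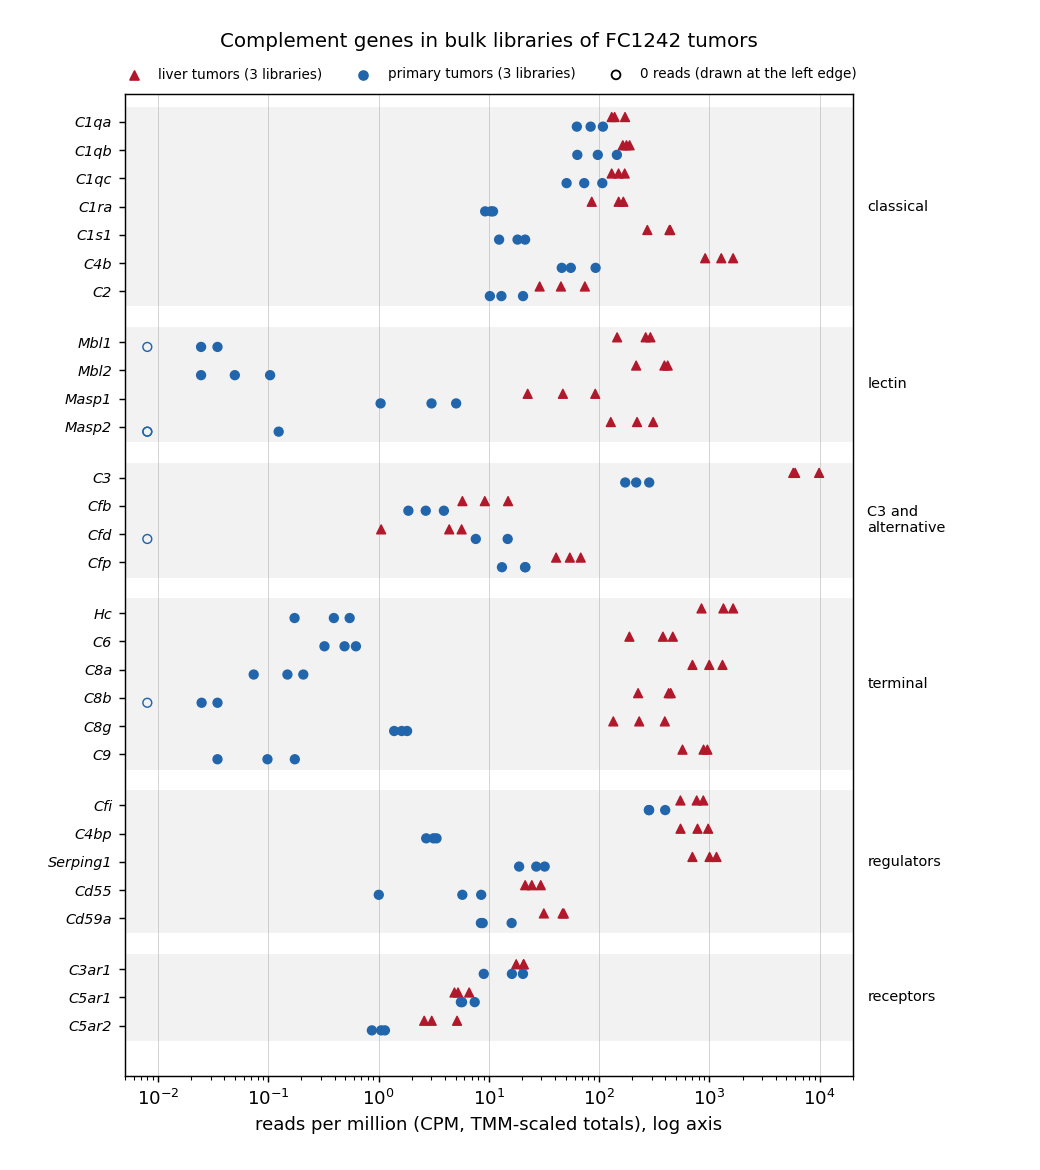
CPM (log axis) of the 29 complement genes in each bulk library, grouped by role, with 3 liver libraries as triangles above 3 primary libraries as circles. Open circles at the left edge are libraries with 0 reads. The triangles stand to the right of the circles for 26 genes, by the widest margin in the lectin and terminal rows.

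**Figure D2:**
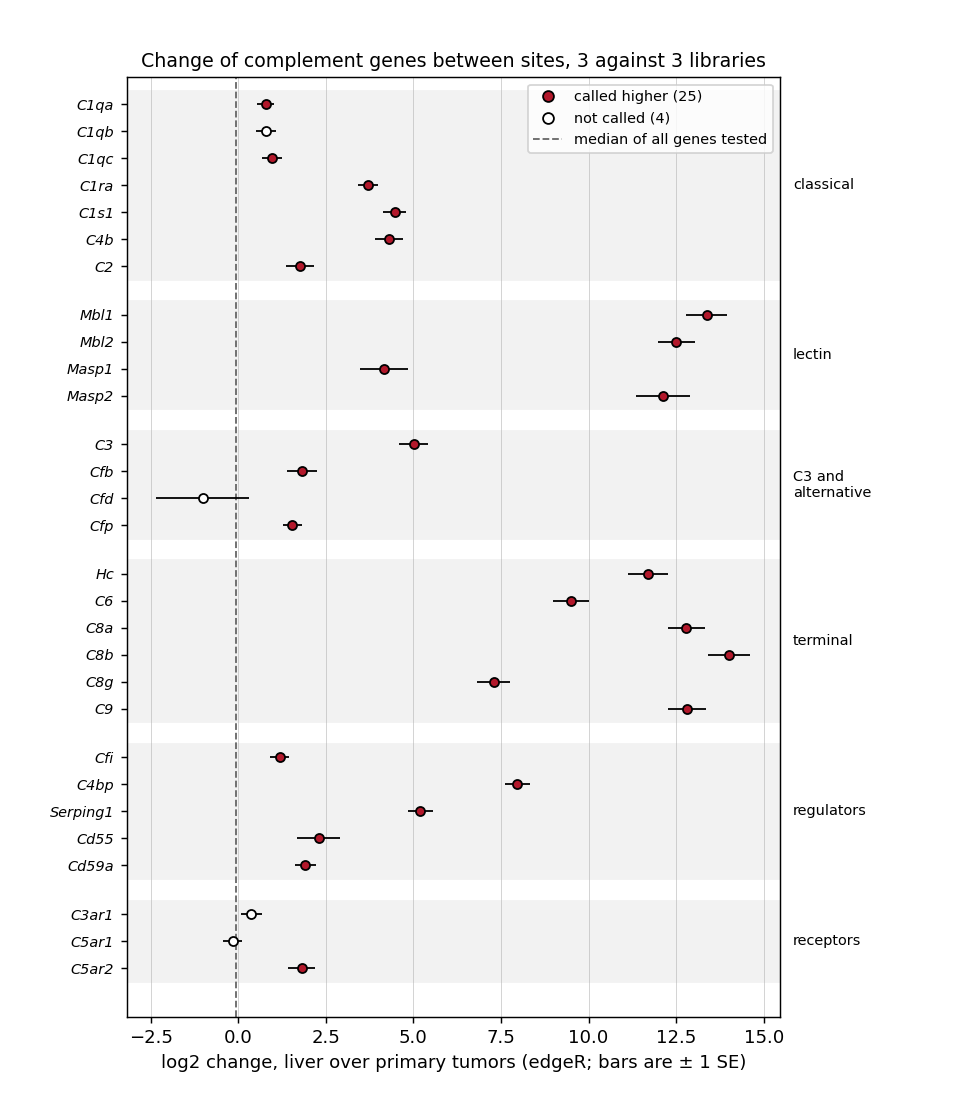
The log2 change of each gene (liver over primary tumors, edgeR, bars are 1 standard error), filled where called at an adjusted p of 0.05. The lectin genes other than Masp1 and the terminal genes lie between 7.29 and 14.02, and C3ar1 and C5ar1 lie nearest the dashed median of all genes.

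Promoters from RefSeq (GRCm38.p6, 250 bases before to 50 after the start) were found for 22 of the 29 genes, in 25 promoters. No entry was matched for C1qa, C2, C4b, Cfb, Cfi, Masp1 and Serping1. They were searched on both strands for short motifs of liver and myeloid factors. The HNF1 motif GTTAATNAT was in the promoters of C4bp and Hc and in 0.801% of all 32851 promoters. The C/EBP motif TTGCNNAA was in those of C1ra, C1s1, C3, C5ar2 and C9 and in 10.8% of all. The PU.1 motif GAGGAAGT was in that of C1qc and in 3.20% of all, while the HNF4 motif CAAAGTCCA and the NF-kB motif GGGACTTTC were in none of the 25 and in 0.475% and 0.353% of all. A match is only a stretch of letters. Every gene with a match was called higher in liver tumors, as were 25 of all 29 genes. The C/EBP matches of C1ra, C1s1 and C5ar2 are not shown. The promoters of Hc and C4bp (HNF1), C9 and C3 (C/EBP) and C1qc (PU.1) are shown with the motif in capitals:
Hc (chr2:35061363-35061662, minus strand): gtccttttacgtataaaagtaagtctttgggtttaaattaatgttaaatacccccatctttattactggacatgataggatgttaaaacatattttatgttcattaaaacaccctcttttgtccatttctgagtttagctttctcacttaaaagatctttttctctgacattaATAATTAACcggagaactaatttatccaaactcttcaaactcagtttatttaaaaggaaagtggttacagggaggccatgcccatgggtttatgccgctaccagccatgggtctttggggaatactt
C4bp (chr1:130661569-130661868, minus strand): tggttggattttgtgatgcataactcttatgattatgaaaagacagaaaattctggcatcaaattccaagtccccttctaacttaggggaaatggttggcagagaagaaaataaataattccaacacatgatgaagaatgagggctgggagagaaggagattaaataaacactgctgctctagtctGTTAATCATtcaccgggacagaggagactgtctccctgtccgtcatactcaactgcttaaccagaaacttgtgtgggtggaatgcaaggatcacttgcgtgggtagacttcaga
C9 (chr15:6445096-6445395, plus strand): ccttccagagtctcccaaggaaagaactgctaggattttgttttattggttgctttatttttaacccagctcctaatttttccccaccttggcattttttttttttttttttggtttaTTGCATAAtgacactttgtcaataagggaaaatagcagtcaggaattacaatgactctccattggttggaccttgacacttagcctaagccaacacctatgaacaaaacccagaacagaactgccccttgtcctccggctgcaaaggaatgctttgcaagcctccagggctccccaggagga
C3 (chr17:57228087-57228386, minus strand): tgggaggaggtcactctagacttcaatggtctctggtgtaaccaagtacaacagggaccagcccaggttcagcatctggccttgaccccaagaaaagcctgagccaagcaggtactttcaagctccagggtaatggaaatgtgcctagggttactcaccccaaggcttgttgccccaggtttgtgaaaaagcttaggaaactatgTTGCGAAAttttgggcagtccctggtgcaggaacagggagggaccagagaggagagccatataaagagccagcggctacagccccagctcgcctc
C1qc (chr4:136892865-136893164, minus strand): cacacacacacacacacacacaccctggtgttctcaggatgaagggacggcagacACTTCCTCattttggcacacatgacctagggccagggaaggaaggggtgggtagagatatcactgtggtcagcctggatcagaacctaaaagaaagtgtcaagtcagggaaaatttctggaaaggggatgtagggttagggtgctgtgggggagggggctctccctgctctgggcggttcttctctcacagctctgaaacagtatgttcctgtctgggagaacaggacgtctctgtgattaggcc

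RNA of the 6 listed terminal genes was nearly all in the liver tumors. All 6 were higher there, with log2 changes from 7.29 to 14.02. Hc, the precursor of the chemoattractant C5a and of the pore's first subunit C5b, had 1342, 1644 and 849 CPM in liver tumors, against 0.393, 0.173 and 0.547 CPM in primary tumors (log2 change 11.70, SE 0.57, edgeR adjusted p = 5.1e-06). C8a, a chain of C8, had 998, 1316 and 703 CPM in liver tumors, against 0.0738, 0.208 and 0.149 CPM in primary tumors (log2 change 12.79, SE 0.53, adjusted p = 3.1e-06). C9, whose copies form the wall of the pore, had 886, 960 and 571 CPM in liver tumors and 0.0984, 0.0346 and 0.174 CPM in primary tumors (log2 change 12.82, SE 0.53, adjusted p = 3.1e-06). Every liver library was high for these genes, the third lowest among them, and every primary library was under 1 CPM.

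C6 extends the pore, and C8b and C8g are the other chains of C8. C6 had 379, 466 and 188 CPM in liver tumors, against 0.492, 0.624 and 0.323 CPM in primary tumors (log2 change 9.50, SE 0.51). C8b had only 2 reads over the 3 primary libraries against 30405 over the liver libraries, a ratio of 19490 with a 95% counting interval from 5390 to 161000. C8g had 395, 231 and 135 CPM in liver tumors and kept 1.62, 1.39 and 1.82 CPM in primary tumors (log2 change 7.29, SE 0.48), the highest level of the 6 genes in primary tumors. C8a and C8b neighbour each other on chromosome 4 (chr4:104815679-104876398 and chr4:104766317-104804548, mm10), and C8g on chromosome 2 overlaps Fbxw5 on the other strand. Since the strandedness of the counting is not given in the sources used here, reads of C8g and Fbxw5 cannot be told apart where they overlap.

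The lectin pathway showed the same gap for 3 of its 4 genes. The mannose-binding lectin Mbl2 had 391, 419 and 217 CPM in liver tumors, against 0.0246, 0.104 and 0.0497 CPM in primary tumors (log2 change 12.50, SE 0.53, edgeR adjusted p = 3.1e-06). Its relative Mbl1 had 292, 265 and 146 CPM in liver tumors and 2 reads in all over the primary libraries, a ratio of 12360 with a counting interval from 3420 to 102000. Masp2, the protease that cuts C4 and C2 for the lectins, had 310, 221 and 128 CPM in liver tumors, against 0, 0 and 0.124 CPM in primary tumors (log2 change 12.13, SE 0.78), and it overlaps Tardbp on the other strand. Liver libraries were all above 100 CPM for these 3 genes and primary libraries all near 0.

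Masp1, which activates MASP2, differed in its pattern. It had 22.5, 92.4 and 47.0 CPM in liver tumors, against 3.02, 5.06 and 1.04 CPM in primary tumors (log2 change 4.16, SE 0.69, adjusted p = 0.0036). The liver libraries ranged over more than 4 times, with the first one lowest, and all primary libraries kept reads (123, 146 and 42). Masp1 overlaps Rtp4 on the other strand.

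Classical initiation split into the C1q chains, with small changes, and the proteases and C4, which rose strongly. C1qa had 172, 138 and 130.2 CPM in liver tumors, against 83.9, 108 and 62.9 CPM in primary tumors (log2 change 0.79, SE 0.24, edgeR adjusted p = 0.049). C1qc had 171, 150.2 and 130.1 CPM in liver tumors and 73.4, 107 and 50.8 CPM in primary tumors (log2 change 0.97, SE 0.28, adjusted p = 0.043). C1qb had 189, 177 and 164 CPM in liver tumors and 97.4, 145 and 63.5 CPM in primary tumors and was not called (log2 change 0.79, SE 0.29, adjusted p = 0.088). These chains build the recognition molecule C1q from neighbouring genes on chromosome 4 (C1qa at chr4:136895917-136898803, C1qc at chr4:136889804-136893065 and C1qb at chr4:136880129-136886187, mm10). The liver libraries stood above the primary ones for each chain, but primary library 2 came close to the lowest liver library. The calls were fragile: leaving out 1 library at a time, C1qa lost its call in 5 of 6 fits and C1qc in 5 of 6, and C1qb gained it without primary library 2 (adjusted p = 0.0081). Of 14 monocyte and macrophage markers, 9 were higher and 1 (Cd14) lower in liver tumors, with a median of 1.41 on the log2 scale. Arg1 (4.61) and Apoe (4.37) changed most, and which cells of the tissue carried their reads was not tested. The 4 not called were Cd68 (0.10), Ms4a7 (0.14), Lyz2 (0.54) and Spp1 (-0.87). Summed levels of the 14 markers were 10930 to 19340 CPM in liver and 3423 to 8111 CPM in primary tumors, but single genes led these sums. Apoe was the largest part in liver tumors (14930, 11720 and 6554 CPM, against 387, 982 and 238 CPM in primary tumors). Spp1 was the largest part in primary tumors (4644, 1669 and 7353 CPM, against 2459, 2111 and 2921 CPM in liver tumors). All 6 Kupffer cell markers were higher (median 4.89, summed levels of 270.5 to 502 CPM in liver and 2.06 to 11.3 CPM in primary tumors). The part of these cells in the C1q levels was not tested.

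C1ra and C1s1 encode the proteases of the C1 complex. C1s1 had 435, 442 and 274 CPM in liver tumors, against 18.2, 12.4 and 21.3 CPM in primary tumors (log2 change 4.47, SE 0.32, adjusted p = 3.4e-05). C1ra had 166, 150.5 and 85.8 CPM in liver tumors and 9.27, 10.46 and 10.9 CPM in primary tumors (log2 change 3.71, SE 0.29). C4b, the C4 precursor whose fragment binds covalently to targets, had 1283, 1643 and 916 CPM in liver tumors, against 45.9, 93.02 and 55.4 CPM in primary tumors (log2 change 4.31, SE 0.39, adjusted p = 0.00013). C2, which pairs with C4b in the convertase, had 74.3, 45.1 and 28.9 CPM in liver tumors and 10.2, 20.4 and 13.01 CPM in primary tumors (log2 change 1.76, SE 0.39, adjusted p = 0.014). No liver library overlapped a primary one for any of the 4 genes, and all of them kept between 302 and 2685 reads in each primary library. Reads may be shared with the close copies C1rb, C1s2 and C4a.

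C3 was the most abundant of the 29 genes in liver tumors. It had 5999, 9898 and 5766 CPM there, against 217, 173 and 285 CPM in primary tumors (log2 change 5.005, SE 0.415, edgeR adjusted p = 7.6e-05), and it alone took 36.0%, 45.2% and 45.6% of the reads of the 29 genes in liver tumors and 22.7%, 16.3% and 27.3% in primary tumors. C3 is the point at which the pathways meet. Its partners changed less. Properdin (Cfp), which stabilizes the alternative convertase, had 68.2, 54.3 and 40.8 CPM in liver tumors, against 21.5, 13.2 and 21.3 CPM in primary tumors (log2 change 1.54, SE 0.27, adjusted p = 0.0049). Factor B (Cfb), the protease of that convertase, had 5.76, 14.95 and 9.20 CPM in liver tumors and 2.68, 3.92 and 1.87 CPM in primary tumors (log2 change 1.83, SE 0.44, adjusted p = 0.019). The groups overlapped for neither gene, although Cfb was low in all libraries and lost its call without liver library 2 (adjusted p = 0.096) or primary library 3 (0.055). Cfb and C2 lie within the span of the readthrough gene Gm20547, which is listed at 0 reads in all 6 libraries, and the handling of reads shared with it is not given in the sources used here.

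Factor D (Cfd, adipsin), which adipose tissue secretes, did not separate the sites. It had 1.06, 5.67 and 4.38 CPM in liver tumors, against 14.8, 7.62 and 0 CPM in primary tumors (log2 change -1.01, SE 1.32, adjusted p = 0.62). The highest and the lowest value both came from primary tumors, with 603, 220 and 0 reads. Its change had the opposite sign with limma-voom (1.57, adjusted p = 0.66) and on log2(FPKM + 0.1) (0.50, adjusted p = 0.87).

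All 5 regulators were higher in liver tumors. C1 inhibitor (Serping1), which blocks C1r, C1s and the MASPs, had 1005, 1161 and 702 CPM in liver tumors, against 32.1, 26.95 and 18.8 CPM in primary tumors (log2 change 5.20, SE 0.35, edgeR adjusted p = 2.3e-05). C4bp, the C4b-binding protein, had 781, 976 and 548 CPM in liver tumors and 2.71, 3.15 and 3.36 CPM in primary tumors (log2 change 7.97, SE 0.35, adjusted p = 3.5e-06). Liver libraries of both genes exceeded primary libraries by more than 10 times throughout. Factor I (Cfi), the protease that inactivates C3b and C4b, stood out for its level in primary tumors. It had 768, 881 and 547 CPM in liver tumors, against 284.5, 283 and 398 CPM in primary tumors (log2 change 1.19, SE 0.27, adjusted p = 0.017). The lowest liver library was above the highest primary library, but the adjusted p was 0.060 without liver library 1, 0.077 without liver library 2 and 0.059 without primary library 1.

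Cd55 and Cd59a encode anchored membrane proteins that protect host cells, the first by dissolving convertases and the second by blocking the pore. Cd55 had 24.6, 29.6 and 21.4 CPM in liver tumors, against 5.75, 1.01 and 8.53 CPM in primary tumors (log2 change 2.30, SE 0.62, adjusted p = 0.033). Cd59a had 46.7, 47.9 and 31.6 CPM in liver tumors and 8.80, 16.1 and 8.48 CPM in primary tumors (log2 change 1.92, SE 0.31, adjusted p = 0.0031). The groups did not overlap for either gene. Cd55 lost its call without liver library 1, 2 or 3 or without primary library 1 (adjusted p from 0.054 to 0.11) and without a filter on low counts (0.15).

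The receptors were the role with the least change. C3ar1, the C3a receptor of myeloid cells, had 17.7, 20.7 and 20.7 CPM in liver tumors, against 16.2, 20.4 and 9.002 CPM in primary tumors (log2 change 0.38, SE 0.30, edgeR adjusted p = 0.40). C5ar1, the main C5a receptor of neutrophils and macrophages, had 4.88, 5.26 and 6.64 CPM in liver tumors and 5.58, 7.45 and 5.72 CPM in primary tumors (log2 change -0.16, SE 0.28, adjusted p = 0.71). For both genes the libraries of the sites overlapped. C5ar2, the second C5a receptor, which lies beside C5ar1 on chromosome 7, was called higher, with 2.60, 5.16 and 3.04 CPM in liver tumors, against 1.06, 1.14 and 0.870 CPM in primary tumors (log2 change 1.81, SE 0.39, adjusted p = 0.012), and the call was lost without liver library 2 (adjusted p = 0.066). Levels of all 3 receptors stayed under 21 CPM in every library. Ptprc, the gene of CD45 on all leukocytes, was itself higher in liver tumors, with 41.9, 60.8 and 59.1 CPM, against 19.3, 23.4 and 20.9 CPM in primary tumors (log2 change 1.35, SE 0.20, adjusted p = 0.0023).

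Per length of transcript the sites ranked the genes differently. On the FPKM values deposited by the authors, the highest levels in liver tumors were those of C3 (1166, 1974 and 1105 FPKM), Serping1 (432, 512 and 298), Cfi (346, 407 and 243) and C9 (347, 385 and 220.1), and the libraries of the last 3 overlapped each other. In primary tumors the highest level was that of Cfi (128, 127 and 175 FPKM), followed by C1qb (89.2, 133 and 57.0), C1qa (80.4, 104 and 59.1), C3 (42.1, 33.6 and 54.1) and C1qc (37.9, 55.4 and 25.7). Cfi overlapped C1qb in that order, C1qb overlapped C1qa, and C3 overlapped C1qc. In liver tumors Mbl2 came next after C9 (355, 391 and 194 FPKM) and overlapped it.

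Most other complement genes were higher in liver tumors too. Of 30 further genes of the pathway, 25 were tested, of which edgeR called 18 higher, 0 lower and 7 neither, and their median on the log2 scale was 3.82. Among the largest changes were those of Colec10, a collectin of the lectin pathway, and Cpn2, a carboxypeptidase N subunit. Colec10 had 0 reads in all primary libraries and was at least 1381-fold higher in liver tumors, taking 3 reads for the primary group as the floor. Cpn2 had 3 reads there (ratio 11080, counting interval from 3790 to 53700).

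Setting the genes against albumin sorted the primary tumors' complement reads into groups. Alb, the most abundant hepatocyte secretory gene, had 54320, 56270 and 26830 CPM in liver tumors and 4.67, 16.7 and 8.16 CPM in primary tumors, or 3784480 reads over the liver libraries against 1000 over the primary libraries. Reads of C8a came to 22.4 per 1000 Alb reads in liver tumors and 15 in primary tumors (95% Poisson counting interval from 8.40 to 24.7), and those of C9 to 17.8 in liver tumors and 12 in primary tumors (6.20 to 21.0). For 5 genes (Mbl1, Mbl2, Masp2, C8a and C9) the intervals of the sites overlapped, and for C8b the primary ratio was lower, but its intervals overlapped without any 1 of the primary libraries. These 6 genes thus showed no excess over Alb in primary tumors with intervals apart, from 2 to 15 primary reads per gene. Such counts do not show an equal proportion. The primary interval of Mbl1 ran from 0.242 to 7.23 per 1000 Alb reads, against 5.10 in liver tumors. All 5 primary reads of Masp2 came from primary library 3.

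The other 23 genes had more reads per 1000 Alb reads in primary tumors than in liver tumors. Hc had 28.3 per 1000 Alb reads in liver tumors and 43.0 in primary tumors, or 1.52 times as many. This value rested on single libraries: the primary libraries had 84.2, 10.4 and 67.1, the multiple was 2.59 without primary library 2, and the intervals overlapped without primary library 1 or 3. C6, C4bp and C8g were 6.75, 19.6 and 33.4 times above it. For 19 genes the pooled primary ratio was over 100 times the liver ratio. The nearest were Serping1 at 134 times and C3 at 154 times, and Cfi stood at 2193 times. A gene with equal levels at both sites would stand at about the fold of Alb itself, 4654 in mean CPM. The median log2 change over all genes tested was -0.07, so passing 100 times was not particular to these genes. The share over all genes was not counted. C3 had 164 reads per 1000 Alb reads over the liver libraries, against 46450, 10340 and 34950 in the primary libraries. The primary libraries thus differed by over 4 times for C3, and the second, with the most Alb, was the lowest for C3, Serping1 and Cfi. Leaving out primary library 1 put Serping1 at 89.2 times, leaving 18 genes past 100 times, and C3 ranged from 124 times without that library to 239 times without primary library 2. For Cfd the primary libraries had 3174, 456 and 0 reads per 1000 Alb reads, so no multiple is given. Intervals cover counting error only, as PCR copies of a molecule are not separated in these libraries. Within the liver tumors, the ratio to Alb varied by 1.07 to 1.77 times among libraries for the terminal genes, against 4.22 times for Masp1 and 8.39 times for Cfd. That range was not particular to the terminal genes. Among others within it were C1ra (1.196), C1s1 (1.301), Serping1 (1.415) and Cfi (1.44), and among those outside it were C3 (1.947) and Cfb (3.231). The third liver library, with 26830 CPM of Alb, was the lowest liver library for 23 of the 29 genes, and the exceptions were Masp1, Cfb, Cfd, C3ar1, C5ar1 and C5ar2. How many of all genes tested were lowest in that library was not counted, so this count is not shown to be particular to complement.

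**Figure D3:**
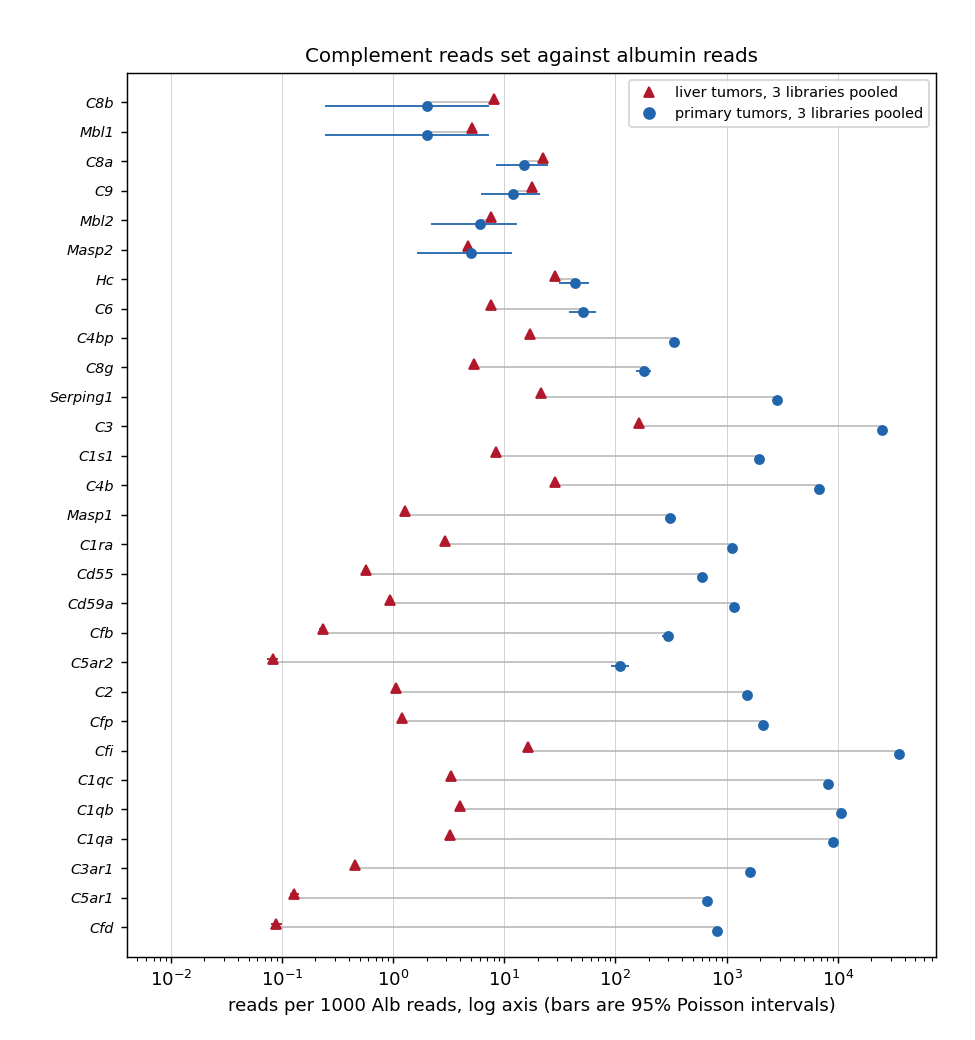
Reads per 1000 Alb reads (log axis) of each gene, pooled over 3 liver libraries (triangles) and 3 primary libraries (circles), with 95% Poisson intervals, ordered by the ratio of the sites. C8b to Masp2 at the top have nearly equal or lower values in primary tumors, and from Serping1 downward the circles lie over 100 times to the right.

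The single-cell libraries gave the levels of the genes in sorted cells. The sort keeps cells with CD45 on their surface, so hepatocytes, fibroblasts and tumor cells should be rare. Yet 2333 cells among 7509 of the liver library, and 306 among 2249 of the primary library, were epithelial tumor-like by their markers. Ptprc had 11.8 CPM of summed UMIs in those of the liver library and 8.62 CPM in those of the primary library, where macrophage-like cells had 280.3 CPM (liver) and 494 CPM (primary). The liver library also held 3049 monocyte or macrophage-like, 509 neutrophil-like, 158 T cell-like and 123 dendritic-like cells, and 1161 cells of an unnamed cluster. The primary library held 1490, 221, 119 and 63 cells of the same 4 classes, and 14 of that cluster. These names were rebuilt from markers. With 1 library per site no test was possible, and all intervals are 95% Poisson intervals for counting error only.

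A gene was counted as over background by its level in a named class of at least 50 cells. That level had to be at least 10 CPM, with an interval above that of the same library's barcodes with 10 to 100 UMIs. These low-count barcodes served as the background, and whether they hold the free RNA around the called cells was not tested. By this rule 7 of the 29 genes (C1qa, C1qb, C1qc, Cfp, C3ar1, C5ar1 and C5ar2) were over background in the liver library and 8 (the same and C4b) in the primary library, against 13.3% and 14.2% of all 31053 genes. In the bulk libraries these 8 genes had a median log2 change of 0.88 (5 called higher), and the other 21 had a median of 5.20 (20 called higher). The low-count barcodes of the primary library also held liver transcripts: Alb had 415 CPM in those of the liver library and 545 CPM in those of the primary library, where macrophage-like cells had 9.56 CPM (liver) and 1 UMI in 22006791 (primary). The source of those UMIs was not tested, and a gene at the level of these barcodes was not counted. Even Ptprc missed the rule in macrophage-like cells of the liver library. It had 280.3 CPM there (interval 274.9 to 285.8), against 229.5 CPM (188.6 to 276.6) in the low-count barcodes. A gene that misses the rule is thus not shown to be absent from leukocytes.

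**Figure D4:**
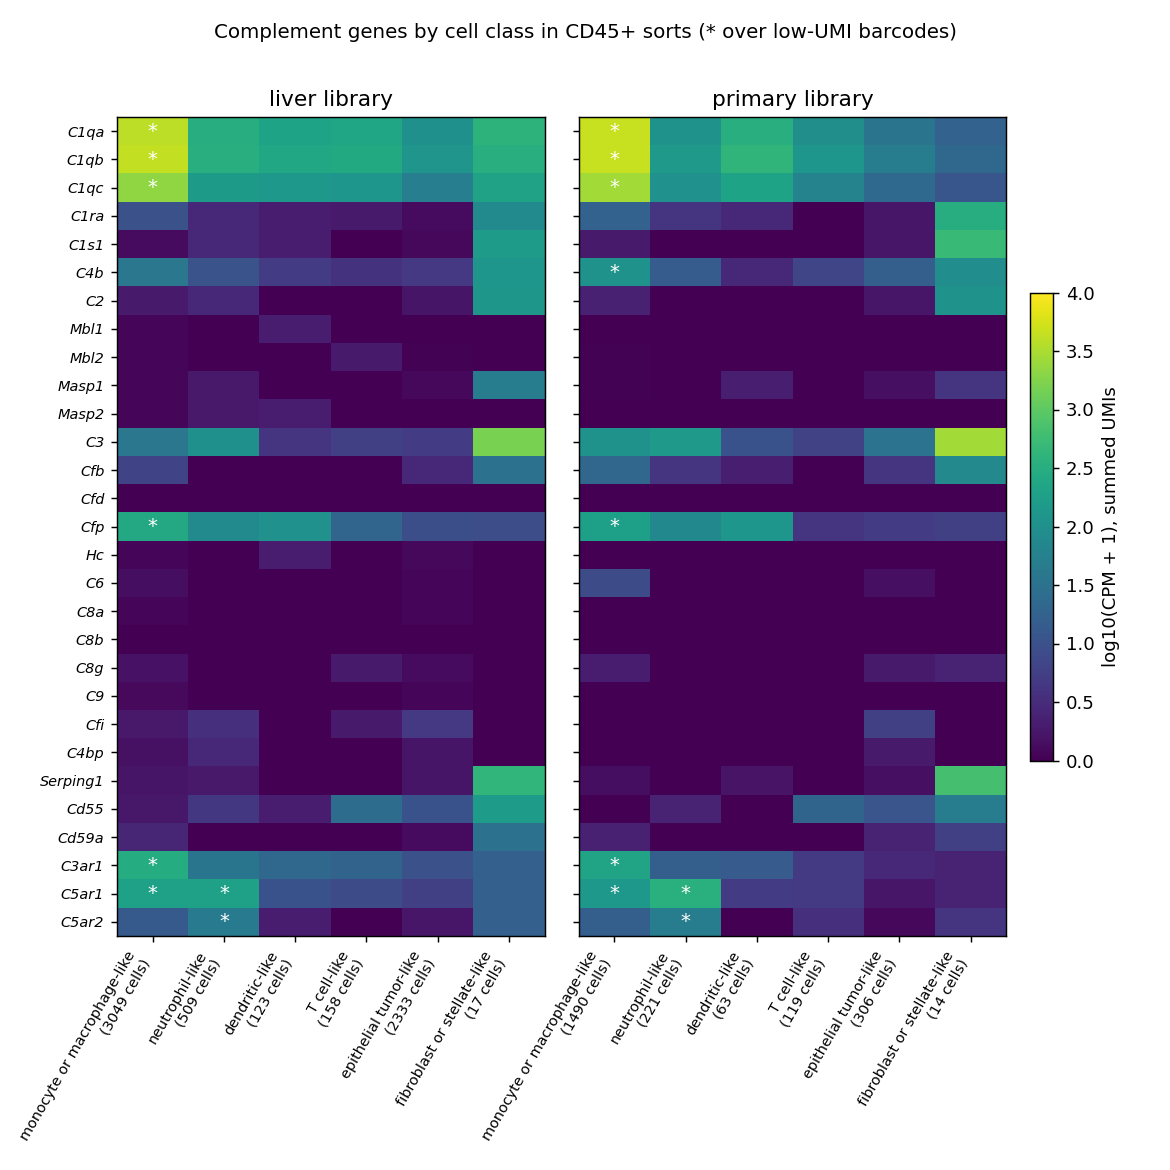
Level of each gene in the 6 cell classes shown, as log10(CPM + 1) of summed UMIs, with the liver library left and the primary library right; stars mark classes of at least 50 cells over the low-count barcodes. C1q, Cfp and the receptors carry the stars in macrophage-like and neutrophil-like cells, and C3, C1s1, Serping1 and C2 are brightest in the few fibroblast or stellate-like cells.

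C1q was the dominant complement RNA of macrophage-like cells at both sites. C1qb had 4350 CPM (interval 4328 to 4371) in the liver library and 4561 CPM (4532 to 4589) in the primary library, a ratio of 0.954. C1qa had 3986 CPM in the liver library and 4562 CPM in the primary library (ratio 0.874). C1qc had 2150 CPM in the liver library and 2770 CPM in the primary library (ratio 0.776). T cell-like cells, which should lack C1q, had 228 CPM of C1qa in the liver library and 93.04 CPM in the primary library, at medians of 5684.5 (liver) and 10702 (primary) UMIs per cell. The pooled levels were thus slightly lower in the liver library, while C1qa and C1qc were called higher in liver bulk tumors. Within the 7 clusters with at least 20 cells of each library, C1qc was lower in liver cells in 4 and higher in 0, with intervals apart, whereas C1qa was lower in 2 and higher in 2, and C1qb lower in 2 and higher in 3.

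For receptors and properdin, the pooled levels of macrophage-like cells were higher in the liver library, but those within clusters mostly were not. C5ar1 had 195 CPM in the liver library and 134 CPM in the primary library (ratio 1.46), Cfp had 255 CPM in the liver library and 181 CPM in the primary library (1.41), and C3ar1 had 301 CPM in the liver library and 218 CPM in the primary library (1.38). With a minimum of 3000 UMIs per cell the log2 ratios of liver over primary cells were 0.06 for C5ar1, 0.06 for Cfp and -0.05 for C3ar1. Over the 7 clusters with at least 20 cells of each library, liver cells had the lower level, with intervals apart, in 3 for C5ar1, 4 for Cfp and 2 for C3ar1, and the higher level in 1 for each gene. In cluster 9, for example, Cfp had 352.5 CPM in liver cells and 441 CPM in primary cells. Cluster 21, with 709 primary and 19 liver cells, had 93.12 CPM of Cfp, 90.5 CPM of C3ar1 and 63.0 CPM of C5ar1 in its primary cells. C5ar1 and C5ar2 were also over background in neutrophil-like cells, with 192 CPM (interval 168 to 220) and 43.7 CPM in the liver library and 340.2 CPM (297 to 388) and 47.7 CPM in the primary library. In neutrophil-like cells C5ar1 was thus lower in the liver library.

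Of the 11 genes with at least 10 CPM in macrophage-like cells of either library, 3 were lower past 2-fold in the liver library and 0 higher. Cfb, among these 3, and C1ra, which was not called, reached 10 CPM in the primary library only. Neither could thus have been called higher. Among all 8051 genes with 10 CPM in either library, 7.53% were lower and 5.3% higher past 2-fold, and the median ratio was 0.970. C3 had 37.9 CPM (interval 35.9 to 39.9) in the liver library and 114 CPM (110.0 to 119) in the primary library, a ratio of 0.331. C4b had 37.5 CPM in the liver library and 114 CPM in the primary library (ratio 0.329), and Cfb had 5.72 CPM in the liver library and 19.8 CPM in the primary library (ratio 0.289). C3 and Cfb were not over background by the rule in either library. In the low-count barcodes C3 had 95.98 CPM in the liver library and 140.3 CPM in the primary library, and in T cell-like cells it had 4.71 CPM (liver) and 5.10 CPM (primary). The direction in macrophage-like cells was opposite to that of whole tumors, in which C3, C4b and Cfb were all higher at the liver site.

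Different clusters made up the macrophage-like class at the sites, and clusters were formed without complement genes. Of the 7 clusters with at least 20 cells of each library, C3 was lower in liver cells in 5, C4b in 4 and Cfb in 3, with intervals apart, and the only one higher was cluster 20 for C4b. Clusters 11, 10 and 9 held 1041, 835 and 582 of the liver library's cells, and clusters 21, 12 and 15 held 709, 385 and 190 of the primary library's cells. Within cluster 9, whose leading genes include Vcan and Chil3, C4b had 66.7 CPM in 582 liver cells and 512 CPM (471 to 555) in 78 primary cells. Within cluster 12, led by Cxcl9, C3 had 87.0 CPM in 84 liver cells and 232 CPM in 385 primary cells, and C4b had 31.3 CPM (liver) and 122 CPM (primary). Within cluster 11, led by Fabp4, the intervals of the sites overlapped: C3 had 32.3 CPM in 1041 liver cells and 32.2 CPM in 28 primary cells, and C4b had 33.4 CPM (liver) and 24.2 CPM (primary). The Kupffer markers Cd5l and Clec4f were highest in cluster 20, with 419 CPM and 136 CPM in 106 liver cells, against 165 CPM and 10.2 CPM in the next cluster, and both were at 0 UMIs in 23 primary cells. These were shallow cells, with a median of 2454 UMIs. C1qa had 3762 CPM and C4b 151 CPM in the liver cells of cluster 20, against 3400 CPM and 28.6 CPM (2 UMIs) in its primary cells.

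**Figure D5:**
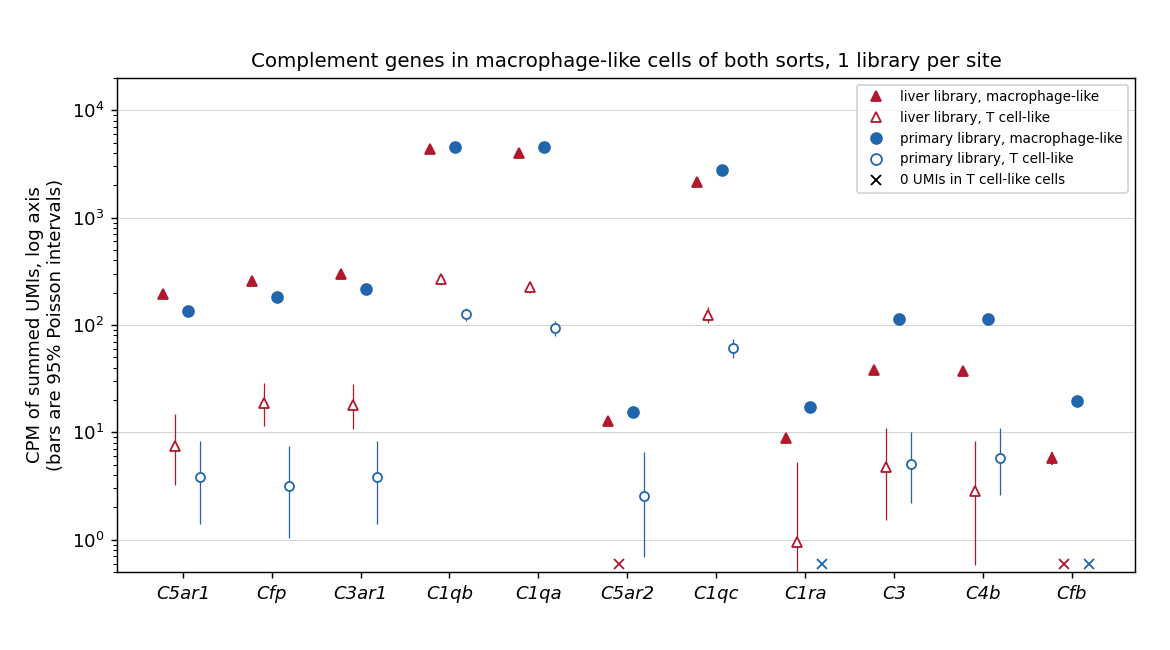
CPM of summed UMIs (log axis) of the 11 genes with at least 10 CPM in macrophage-like cells of either library, with 95% Poisson intervals; filled markers are macrophage-like cells, open markers T cell-like cells, liver triangles left of primary circles. The C1q chains exceed 2000 CPM in both libraries, and C3, C4b and Cfb at the right are lower in the liver library.

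C6 was a terminal gene with a trace in macrophage-like cells of the primary library. It had 14 UMIs (0.387 CPM) in the liver library's macrophage-like cells and 168 UMIs (7.63 CPM, interval 6.52 to 8.88) in those of the primary library, under the level of 10 CPM set for a call. Cluster 12 of the primary library held 103 of the 168 UMIs. The other terminal genes, Mbl1, Mbl2, Masp1 and Masp2 had at most 23 UMIs in the macrophage-like cells of either library. Cfd had 0 UMIs in every class of both libraries.

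Several of the genes had their highest levels in the few other cells that passed the sort. In 17 fibroblast or stellate-like cells of the liver library and 14 of the primary library, C3 had 1540 CPM (interval 1333 to 1770.0) and 2802 CPM (2675 to 2934). In those of the liver library Serping1 had 436 CPM, C1s1 156 CPM, C1ra 77.8 CPM and C2 132 CPM, against 667 CPM, 505 CPM, 309 CPM and 111 CPM in those of the primary library. The median was 2399 UMIs per cell in the liver library and 45517 in the primary library, so the sites were not compared. The 12 hepatocyte-like cells, all from the liver library, had 4358 CPM of Alb, 774 CPM of C3 (510.1 to 1126), 172 CPM of C9 (63.1 to 374) and 86.01 CPM each of Mbl2 and C4bp, the last 2 from 3 UMIs each.

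Cfi was high in bulk primary tumors and nearly absent from sorted cells. It had 284.5 to 398 CPM in the primary bulk libraries, but 4.79 CPM in epithelial tumor-like cells of the primary library (20 UMIs, interval 2.92 to 7.39), 0 UMIs in its macrophage-like and fibroblast or stellate-like cells, and 18.5 CPM in its low-count barcodes. In the liver library the epithelial tumor-like cells had 3.64 CPM. Cd55 was likewise low in tumor-like cells, with 9.34 CPM in the liver library and 10.53 CPM in the primary library. It was highest in the fibroblast or stellate-like cells of the liver library (155.5 CPM), in its 43 B cell-like cells (112.5 CPM, interval 72.1 to 167) and in the 4 B cell-like cells of the primary library (64.8 CPM from 3 UMIs). Which cells of the primary tumors carry the Cfi reads was not tested.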

How the data were processed

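The 29 genes, the other gene lists and the tests were chosen with earlier results of these data known. The authors deposited raw read counts per gene and FPKM for the 6 bulk libraries, and UMI counts for all 6794880 barcodes of each single-cell library. Per the submitters' processing notes, bcl2fastq, Cell Ranger and the mm10 build were used; the bulk aligner, the counting tool and its strandedness are not given in the sources used here. The barcode list in the files is longer than that of the v2 kit version the labels name.

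Counts were tested with edgeR 4.0.16 (R 4.3.3; filterByExpr, TMM factors, robust quasi-likelihood fit on site, two-sided, Benjamini-Hochberg over all genes tested), and all adjusted p-values in the text are from it unless another tool is named. CPM uses TMM-scaled totals. Deposited FPKM values were used only for levels between genes and as an alternative. Alternatives were DESeq2 1.42.0 and limma 3.58.1, other factors and filters, FPKM with pseudocounts of 1 and 0.1, the replicate block and leaving out each library. Ratios to Alb without each library and levels within clusters were added after seeing the data. All 29 genes and the 3 largest called changes among the other complement genes were to be named, of which 1 is not reported here.

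Cells had at least 1500 UMIs, 200 genes and at most 10% mitochondrial UMIs. Scrublet scores above 0.25, a limit set after the automatic one had marked 1 liver and 5 primary barcodes, removed 109 and 28. Both libraries were clustered together (scanpy 1.11.5, leidenalg 0.10.2; 10000 UMIs per cell, 2000 variable genes without complement genes, 30 components, 15 neighbors, resolution 1), and clusters were named from listed markers. Names were rebuilt without a cell annotation by the authors, so shares may differ from theirs. Gene positions are those of GENCODE on mm10, and promoters are from RefSeq on GRCm38.p6.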

Additional observations from a re-analysis of the deposited data

How the results depend on the processing

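The number of genes called higher ran from 24 to 26 of 29 over the alternatives that kept all 6 bulk libraries, and from 19 to 26 when 1 library was left out, with 19 without liver replicate 2; 0 genes were called lower in any of them. The minimum of 5 CPM left 28 genes, of which 24 were higher. The 2 reversals were both of Cfd, which was not called: 1.57 with limma-voom and 0.50 on log2(FPKM + 0.1). Single genes lost their call 23 times (C1qa, C1qc, Cfb, Cfi, Cd55 and C5ar2) and C1qb gained it 2 times. The replicate numbers did not pair the libraries: the correlations of same-numbered libraries, as deviations from their site's mean, were -0.19, 0.27 and 0.10, and 2 of 6 libraries correlated best with their own number. With the replicate block 26 genes were called higher, C1qb being the addition (adjusted p = 0.043 in edgeR). Over all genes, 2755 higher and 1032 lower became 1810 and 134 without liver replicate 2, and the lower count was 414 without liver replicate 1 and 606 without primary replicate 3. In the single-cell libraries, 6 to 8 genes were over background in the liver library and 7 to 8 in the primary library, and 3 or 4 were past 2-fold in macrophage-like cells under each alternative. For reads per 1000 Alb reads, leaving out 1 library gave 18 to 19 genes past 100 times, 22 to 23 with more in primary tumors, 5 to 7 with overlapping intervals and 0 to 1 with fewer (0 without primary replicate 1 or 2, and C9 in place of C8b without primary replicate 3). Depth limits Mbl1, Mbl2, Masp2 and C8b in primary tumors, which had 2 to 6 reads, and the cause of none of these shifts was tested.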

Other observations

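Clusterin (Clu), an extracellular chaperone that also restrains the terminal complex, was picked out after its values were seen, since it was the listed complement gene whose liver libraries all lay below the primary ones. It had 4429, 5303 and 4963 CPM in liver tumors, against 7417, 8635 and 8130 CPM in primary tumors, and was not called (log2 change -0.72, SE 0.29, edgeR adjusted p = 0.12). In epithelial tumor-like cells of the sorts it had 2832 CPM in the liver library and 4719 CPM in the primary library, with 1 library per site.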
